A study of Mus musculus with 6 samples.

Results

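The interferon regulatory factors are a family of transcription factors, and transcripts of 8 of its members, Irf1, Irf2, Irf3, Irf4, Irf5, Irf7, Irf8 and Irf9, were measured in naive CD4 T cells that lack or carry Ly-6C, a lipid-anchored surface protein. The members were taken by gene name. For each gene, the probe set listed under that symbol alone was used, and the brightest where there was more than 1, which gives 8 of the 19938 genes tested. The T cells were isolated from peripheral lymph nodes. The mice were C57BL/6 Foxp3-GFP, 6 weeks old, a strain in which green fluorescent protein reports Foxp3, the factor that defines regulatory T cells. The sort kept CD4+ TCRβ+ cells that were CD44lo and negative for CD8, CD25 and Foxp3, and the resulting naive cells were split into a Ly-6C- and a Ly-6C+ population, with no treatment of either. There are 3 Affymetrix arrays of each population, and the labels call them biological replicates. The labels do not say which mice, or how many, gave each RNA, so p-values rest on the spread between these arrays. The limma test used here draws the spread of each gene toward that of all genes. Its standard errors, intervals and p-values thus do not reflect a gene's own 6 values alone. Every difference given here subtracts the Ly-6C-positive from the Ly-6C-negative mean on the log2 scale, on which 1 unit is a doubling.

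All family members bind DNA through an amino-terminal domain with conserved tryptophans that recognises repeats of the bases GAAA, the core of interferon-stimulated response elements. IRF3, IRF5 and IRF7 wait in the cytoplasm and act after sensors of viral or microbial nucleic acid switch on kinases that phosphorylate them. IRF9 joins STAT proteins below the type I interferon receptor, while the genes of IRF1 and other members are themselves switched on by interferon, IRF1 as an activator and IRF2 as a factor that competes for the same sites. IRF4 and IRF8 are lymphoid and myeloid members that bind weakly alone and pair with partners such as PU.1 or the BATF and JUN proteins, and in T cells Irf4 is a gene whose level follows the strength of the T cell receptor signal.

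The upstream sequences are shown because the known inputs of these genes differ. Irf1, Irf2 and Irf4 were also the members whose arrays separated by group, as did those of 12.6% of all genes. A link between a motif and a difference was not tested. RefSeq promoter windows on GRCm38.p6, from 250 bases before to 50 after an annotated start, were found for all 8 members, 11 windows in all. They were searched on both strands for GAAANNGAAA (the site of the family itself), TTCNNNGAA (the gamma-activated sequence bound by STAT dimers), the kappa B motif of NF-kB, and TATAAA (the TATA element). In the lines that follow the 250 bases upstream of the start are printed 5′ to 3′ with every match in capitals, and no base lay in more than 1 match.
Irf4, chr13:30748983-30749232, plus strand: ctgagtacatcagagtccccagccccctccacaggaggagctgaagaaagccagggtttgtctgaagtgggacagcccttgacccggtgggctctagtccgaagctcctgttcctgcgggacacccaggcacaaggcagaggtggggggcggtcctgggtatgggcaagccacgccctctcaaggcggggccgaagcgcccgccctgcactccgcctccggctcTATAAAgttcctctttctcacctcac
Irf1, chr11:53769764-53770013, plus strand, first of its pair of starts: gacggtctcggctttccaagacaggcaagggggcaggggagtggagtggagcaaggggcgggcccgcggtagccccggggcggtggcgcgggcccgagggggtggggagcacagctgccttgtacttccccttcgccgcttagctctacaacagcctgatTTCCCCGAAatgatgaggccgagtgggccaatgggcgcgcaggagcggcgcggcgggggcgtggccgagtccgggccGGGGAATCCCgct
Irf2, chr8:46739495-46739744, plus strand: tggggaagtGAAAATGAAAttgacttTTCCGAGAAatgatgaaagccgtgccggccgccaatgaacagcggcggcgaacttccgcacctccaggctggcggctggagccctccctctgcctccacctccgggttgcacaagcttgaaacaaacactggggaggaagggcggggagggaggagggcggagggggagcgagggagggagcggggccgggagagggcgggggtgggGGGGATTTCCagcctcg
Irf8, chr8:120736108-120736357, plus strand, first of its pair of starts: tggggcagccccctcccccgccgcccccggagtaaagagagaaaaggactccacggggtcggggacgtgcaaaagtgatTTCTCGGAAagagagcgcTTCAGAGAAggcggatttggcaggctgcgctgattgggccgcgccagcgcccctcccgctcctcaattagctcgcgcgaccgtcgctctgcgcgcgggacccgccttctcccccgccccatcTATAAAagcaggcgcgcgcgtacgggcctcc
The Irf4 window held a TATA element 26 to 21 bases before the start and no match to the other 3 motifs. Irf1 held a gamma-activated sequence, TTCCCCGAA, 90 to 82 bases before the start and a kappa B match, GGGGAATCCC, 13 to 4 bases before it. The Irf2 window held a GAAANNGAAA match, GAAAATGAAA, the only one in the 11 windows, together with a gamma-activated sequence and a kappa B match. Irf8 held 2 gamma-activated sequences and a TATA element. Irf7 held a TATA element, and the windows of Irf3, Irf5 and Irf9 held none of the 4 motifs. Among all 32851 windows of 300 bases, 3.44% held GAAANNGAAA, 8.30% the gamma-activated sequence, 4.51% the kappa B motif and 13.6% TATAAA. These matches describe letters in short windows, and binding was not measured here.

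The data are deposited log2 values of 28853 probe sets. The array medians were 6.27, 6.26 and 6.25 in Ly-6C-negative replicates 1, 2 and 3, and 6.29, 6.29 and 6.28 in the Ly-6C-positive ones. The pairwise r over genes lay between 0.993 and 0.998 within a group and between 0.994 and 0.997 across groups. Genes are not independent replicates there. Ly-6C-negative replicate 2 stood apart on the first principal component, with a score of 19.9 where the other arrays lay between -10.0 and -0.259. The Ly-6C transcripts followed the sort: the brighter of 2 probe sets shared by Ly6c1 and Ly6c2 was lower by 9.03-fold where the protein was absent (limma adjusted p = 3.94e-05 over all probe sets). All 8 measured T cell markers were brighter than the median gene, and their levels overlapped between groups except for Cd28, which differed by 0.16 (limma adjusted p = 0.739).

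Of the 8 Irf transcripts, Irf4 had the largest difference and the smallest p, and all 3 Ly-6C-negative arrays lay above all 3 Ly-6C-positive arrays. None of the 8 passed an adjusted p of 0.05 in limma after Benjamini-Hochberg adjustment over all genes, a threshold that 0.145% of genes passed. Without adjustment 1 member, Irf4, had a limma p under 0.05, as did 1337 genes or 6.71% of all. The groups did not overlap for 3 members, Irf4 and Irf2 with the Ly-6C-negative arrays above and Irf1 with them below, where 12.6% of all genes had groups that do not overlap, 6.12% with Ly-6C-negative higher and 6.5% with it lower. The median difference of the 8 was -0.011, against -0.0048 over all genes, and the median size of a difference was 0.056, against 0.062. With 3 arrays against 3, an exact 2-sided permutation test of a single gene cannot go below p = 0.10, the value it gave for Irf4, Irf1 and Irf2.

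**Figure D1:**
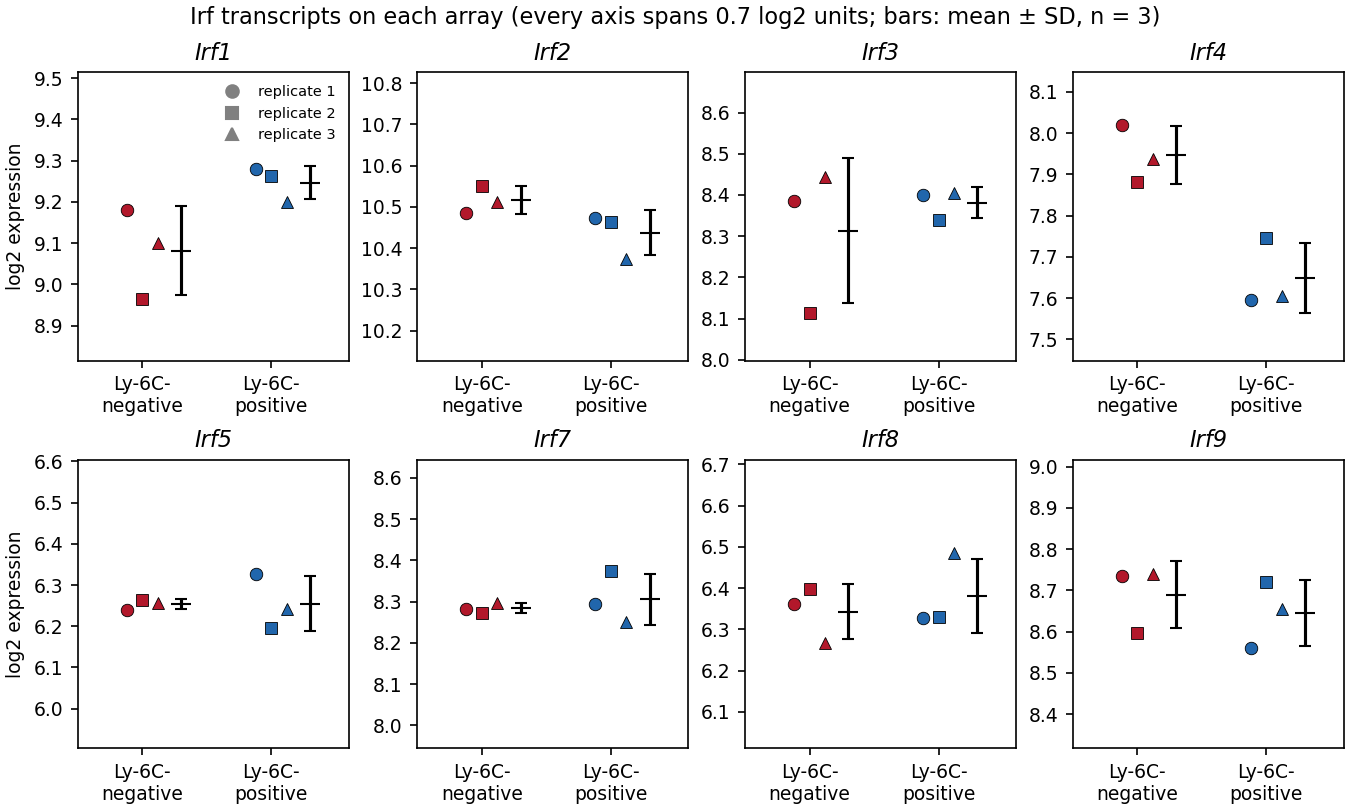
The log2 expression of each Irf transcript (vertical axis, 0.7 log2 units in every panel) on the 3 Ly-6C-negative arrays (red) and the 3 Ly-6C-positive arrays (blue), with the replicate number given by the symbol and the mean ± SD (n = 3) beside each group. For Irf4 the red points lie between 7.88 and 8.02 and the blue points between 7.60 and 7.75, while for Irf5, Irf7, Irf8, Irf9 and Irf3 the points of both groups overlap.

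Irf4 measured 8.02, 7.88 and 7.94 in Ly-6C-negative replicates 1, 2 and 3, and 7.60, 7.75 and 7.60 in the Ly-6C-positive ones. The lowest Ly-6C-negative array lay above the highest Ly-6C-positive array, both of them replicate 2. The means were 7.95 ± 0.070 (SD, n = 3) and 7.65 ± 0.084 (SD, n = 3), a difference of 0.30 with a standard error of 0.073, or 1.23-fold. The 95% interval of the difference, which is not adjusted for the number of genes, ran from 0.14 to 0.46, or from 1.10-fold to 1.38-fold. The limma p was 0.00236 before and 0.364 after adjustment, and 128 genes had a smaller p. Taken by replicate number, the difference was 0.43, 0.14 and 0.33. Over the 14 alternative analyses that give a value for Irf4, the difference ran from 0.26 to 0.35 and the limma adjusted p from 0.174, with array weights, to 0.848, without Ly-6C-positive replicate 3, so the gene passed in none of them. These are bulk samples, in which more cells with the transcript and more of it per cell cannot be told apart.

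Irf8, the closest relative of Irf4, measured 6.36, 6.40 and 6.27 in Ly-6C-negative cells and 6.33, 6.33 and 6.49 in Ly-6C-positive cells. The groups overlapped, and the single high array was Ly-6C-positive replicate 3. The difference was -0.039 with a 95% interval from -0.20 to 0.13, or from 0.868-fold to 1.09-fold (limma adjusted p = 0.961). Without that array it was 0.014. Whether the difference of Irf4 and that of Irf8 differ from each other was not tested.

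Since Irf4 and Irf8 are also abundant in B cells, dendritic cells and macrophages, and Irf4 in regulatory T cells, markers of those cells were read beside them. All 8 measured B cell markers and all 8 dendritic cell markers were dimmer than the median gene, as were 6 of 7 monocyte and macrophage markers, the exception being Cd68. These array values have no true zero. The summed log2 level of the B cell markers ran from 41.38 to 41.77 on the Ly-6C-negative arrays and from 41.54 to 41.78 on the Ly-6C-positive ones, and that of the dendritic cell markers from 41.84 to 42.5 and from 41.77 to 42.72. For the monocyte and macrophage markers it ran from 37.61 to 37.89 and from 37.41 to 38.09. The 3 sums thus overlapped between the groups, but in a sum, markers that go in opposite directions offset each other. Singly, groups did not overlap for 1 of 8 B cell markers, Pax5, lower by 0.16 without Ly-6C (limma adjusted p = 0.784). The same held for 1 of 7 monocyte and macrophage markers, Fcgr3, lower by 0.19 (limma adjusted p = 0.653), and for 0 of 8 dendritic cell markers. Lyz2, with overlap, was higher by 0.25 (limma adjusted p = 0.742).

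Of the 3 regulatory T cell markers, Ikzf2, the gene of Helios, was higher by 0.63 in the cells without Ly-6C (limma adjusted p = 0.0263). Foxp3 differed by 0.013 (limma adjusted p = 0.995) and Il2ra by 0.12 (limma adjusted p = 0.916). The summed level of the 3 ran from 18.32 to 19.28 on the Ly-6C-negative and from 17.96 to 18.21 on the Ly-6C-positive arrays, without overlap. That separation came from Ikzf2: the summed level of Foxp3 and Il2ra, whose products the sort selected against, ran from 11.67 to 12.38 and from 11.85 to 12.12, with overlap. The part of this list in the Irf4 difference was not tested.

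Irf1, the interferon-gamma induced activator, was the member with the largest difference in the other direction. It measured 9.18, 8.97 and 9.10 in Ly-6C-negative cells and 9.28, 9.26 and 9.20 in Ly-6C-positive cells. All 3 Ly-6C-negative arrays lay below all 3 Ly-6C-positive arrays, by a narrow margin between Ly-6C-negative replicate 1 and Ly-6C-positive replicate 3. The difference was -0.17 with a standard error of 0.074 and a 95% interval from -0.33 to 0.0013, or 1.12-fold lower (limma adjusted p = 0.742). It was -0.11 without Ly-6C-negative replicate 2, and with array medians subtracted the groups of Irf1 overlapped. A second Irf1 probe set, matched to a single cDNA record, measured 8.70, 8.54 and 8.80 against 8.71, 8.72 and 8.78. Its groups overlapped, and its difference was -0.058 (limma adjusted p = 0.948 over all probe sets).

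Irf2, which competes with IRF1 for its sites, measured 10.48, 10.55 and 10.51 in Ly-6C-negative cells and 10.47, 10.46 and 10.37 in Ly-6C-positive cells. The groups did not overlap, but the lowest Ly-6C-negative array lay close above the highest Ly-6C-positive one, and both were replicate 1. The difference was 0.079 with a standard error of 0.065 and a 95% interval from -0.067 to 0.22 (limma adjusted p = 0.897). In fold terms the interval reached from 0.955 to 1.17.

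Irf3, the factor that acts first after nucleic acid sensing, measured 8.39, 8.11 and 8.44 in Ly-6C-negative cells and 8.40, 8.34 and 8.40 in Ly-6C-positive cells. Only Ly-6C-negative replicate 2 stood apart, below the rest. The difference was -0.068 with a 95% interval from -0.27 to 0.13 (limma adjusted p = 0.940), and without that array it turned to 0.032.

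Irf7, the interferon-induced partner of IRF3 in the second wave of interferon transcription, had the narrowest span over the 6 arrays, 0.12. It measured 8.28, 8.27 and 8.30 in Ly-6C-negative cells and 8.29, 8.37 and 8.25 in Ly-6C-positive cells, so the Ly-6C-negative arrays lay within the span of the others. The difference was -0.021 with a 95% interval from -0.17 to 0.12, or from 0.891-fold to 1.09-fold (limma adjusted p = 0.979), and its sign turned with array medians subtracted, at 0.0019.

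Irf5, which acts below Toll-like receptors in myeloid cells and B cells, measured 6.24, 6.26 and 6.26 against 6.33, 6.20 and 6.24. Here too the Ly-6C-negative arrays fell inside the range of the Ly-6C-positive arrays. The difference was -0.0011, the smallest of the family, with a 95% interval from -0.15 to 0.15 (limma adjusted p = 0.999). It was 0.019 after a second quantile normalization and 0.022 with array medians subtracted. The mean levels of Irf5 and Irf8 lay below that of the median gene.

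Irf9, the DNA-binding subunit of the complex that answers type I interferon, measured 8.73, 8.60 and 8.74 in Ly-6C-negative cells and 8.56, 8.72 and 8.65 in Ly-6C-positive cells. The groups overlapped, with a low replicate 2 in one and a low replicate 1 in the other. The difference was 0.045 with a 95% interval from -0.12 to 0.21, or from 0.920-fold to 1.16-fold (limma adjusted p = 0.950).

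**Figure D2:**
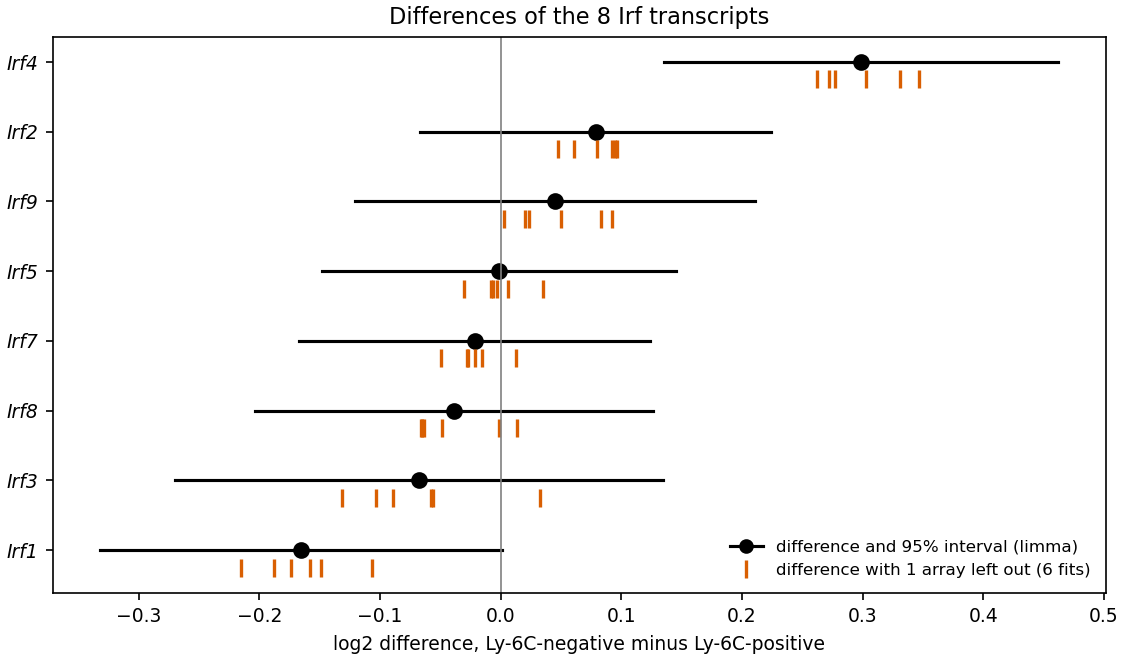
The log2 difference of each Irf transcript (horizontal axis, Ly-6C-negative minus Ly-6C-positive) with its limma 95% interval (black), and the difference in each of 6 fits that leave out 1 array (orange). The interval of Irf4, from 0.14 to 0.46, lies to the right of 0, those of the other 7 members include 0, and the orange marks lie on both sides of 0 for Irf3, Irf5, Irf7 and Irf8.

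In each of the 8 members Ly-6C-negative replicate 2 held the lowest or the highest value of its group, the lowest in 5 (Irf1, Irf3, Irf4, Irf7 and Irf9) and the highest in 3. Over all genes that array was at an end of its group in 73.1%, against 59.7% and 67.4% for the other 2 arrays. For Irf4 this array drew the groups together, and without it the difference was 0.33 (limma adjusted p = 0.219). For Irf1 it drew them apart.

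By root mean square difference over the 6 arrays, each gene centred on its own mean, the genes closest to Irf4 among 19937 others were Mirlet7g, the locus of a let-7 microRNA, at 0.022, Ttc4 at 0.035, Kif20b, a mitotic kinesin gene, at 0.039, and Ankrd52 and Map3k8 at 0.040. The median distance to Irf4 was 0.187. Map3k8, which encodes a kinase upstream of ERK, measured 7.24, 7.14 and 7.29 in Ly-6C-negative cells and 6.89, 7.0 and 6.90 in Ly-6C-positive cells. As in Irf4 and the other 4 genes, replicate 2 was the lowest Ly-6C-negative array and the highest Ly-6C-positive array. Genes picked for closeness to Irf4 over the arrays are bound to share much of its array pattern. The difference of Map3k8 was 0.29 (limma adjusted p = 0.357), and those of the other 4 lay between 0.23 and 0.32 with limma adjusted p from 0.284 to 0.519. The 6 arrays fall into 2 groups, so genes with a like group difference come out close to each other by this measure.

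**Figure D3:**
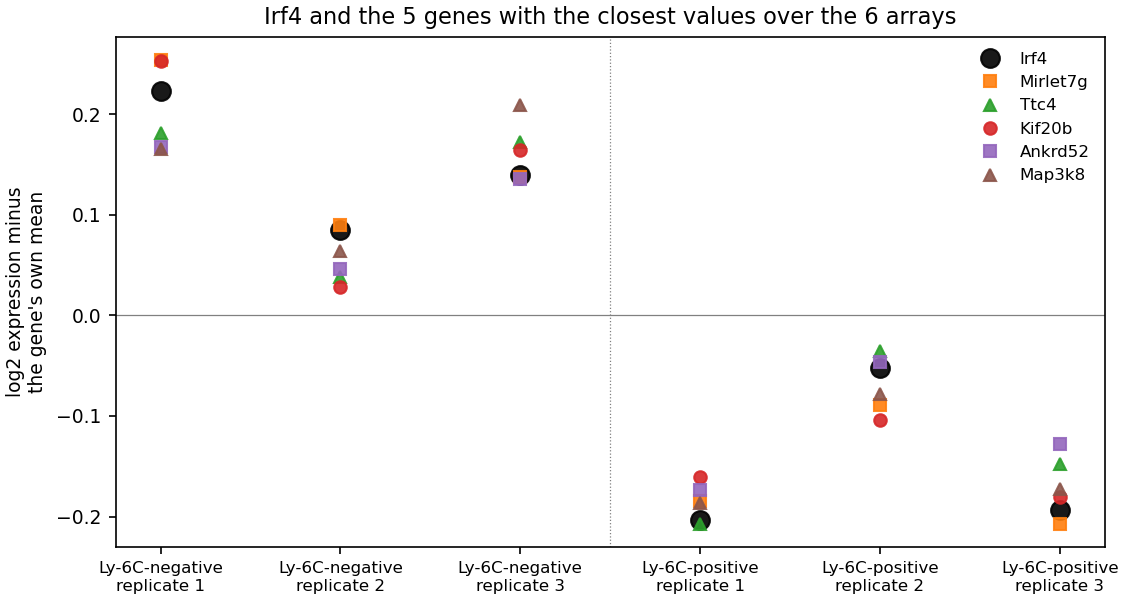
Log2 expression minus the gene's own mean over the 6 arrays (vertical axis) for Irf4 (black) and its 5 closest genes, by array. In every gene the Ly-6C-negative values are above 0 and the Ly-6C-positive values below it, with Irf4 at 0.22, 0.085 and 0.14 and at -0.20, -0.052 and -0.19.

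Around the family, 86 companion genes were grouped by role into 5 lists, of which 76 were measured. None of the 76 passed an adjusted p of 0.05 in limma, 11 or 14.5% had an unadjusted p under 0.05, against 6.71% of all genes, and 13 or 17.1% had groups that do not overlap, against 12.6%. Above 0 lay 37, and the median difference was -0.0026. The 10 others are not analysed here.

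In the list of interferon receptors, kinases and STATs, 6 of 11 measured genes were above 0, none passed, and the median difference was 0.10. Ifnar2, a chain of the type I interferon receptor, measured 9.71, 9.86 and 9.69 in Ly-6C-negative cells and 9.62, 9.58 and 9.40 in Ly-6C-positive cells. The groups did not overlap, and the difference was 0.22 (standard error 0.081, limma adjusted p = 0.641). Ifnar1, the other chain, named after its value was seen, differed by -0.055 (limma adjusted p = 0.925). Its groups did not overlap either, with the Ly-6C-negative arrays below. Stat2, which binds DNA through IRF9, differed by 0.19 (limma adjusted p = 0.675), also without overlap of the groups. Jak2, a kinase of the interferon-gamma receptor, differed by 0.22 (limma adjusted p = 0.718).

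Among 16 measured sensors, adaptors and kinases upstream of IRF3, IRF5 and IRF7, 8 were above 0 and the median difference was -0.012. Tlr7, an endosomal receptor of single-stranded RNA, had the largest difference of any companion gene. It measured 6.79, 6.64 and 6.55 in Ly-6C-negative cells and 6.23, 6.51 and 6.17 in Ly-6C-positive cells, without overlap. The difference was 0.36 (standard error 0.10, limma adjusted p = 0.483). Ifih1, the gene of the RNA sensor MDA5, differed by 0.18 (limma adjusted p = 0.732), and Cgas, a DNA sensor gene, by -0.12 (limma adjusted p = 0.847).

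Of 13 measured partners and cofactors, 5 were above 0, with a median of -0.015. Jun, which forms part of the AP-1 dimers that IRF4 joins, measured 9.98, 10.30 and 9.97 in Ly-6C-negative cells and 10.45, 10.43 and 10.29 in Ly-6C-positive cells. The groups overlapped through Ly-6C-negative replicate 2, and the difference was -0.30 (standard error 0.098, limma adjusted p = 0.577), opposite in sign to that of Irf4. Irf2bp2 and Irf2bpl, genes of IRF2-binding corepressor proteins, had differences of 0.17 and -0.18, at limma adjusted p = 0.653 and 0.753. Of 4 measured T cell inputs to Irf4, 3 were above 0, none passed, and the median difference was 0.087. The calcium-regulated factor gene Nfatc1 differed by 0.16, and the NF-kB subunit genes Rel and Rela by 0.10 and 0.071 (limma adjusted p of 0.739, 0.921 and 0.931). Nfatc2, named after its value was seen, differed by -0.025 (limma adjusted p = 0.971).

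The interferon-stimulated genes, which interferon switches on in many cell types, lay on both sides of 0: 15 of 32 measured were above it, with a median difference of -0.0039, where 47.8% of all genes were above it. None passed. Of the 32, 3 had an unadjusted limma p under 0.05, where 6.71% of all genes did. Groups did not overlap for 6 of them, where they did not for 12.6% of all genes. Oasl2, of the oligoadenylate synthetase-like family, measured 7.97, 8.0 and 7.83 in Ly-6C-negative cells and 8.28, 8.23 and 8.23 in Ly-6C-positive cells. All 3 Ly-6C-negative arrays lay below the other 3, and the difference was -0.31 (standard error 0.070, limma adjusted p = 0.285). Its relative Oasl1 differed by 0.16 (limma adjusted p = 0.740) and the antiviral GTPase gene Mx2 by 0.34 (limma adjusted p = 0.693), both with the Ly-6C-negative arrays above the others. Mx2 measured 7.25, 7.30 and 7.15 in Ly-6C-negative cells and 7.07, 7.09 and 6.54 in Ly-6C-positive cells. Ly-6C-positive replicate 3 thus stood apart, below the rest. The summed log2 level of the list ran from 277.2 to 278.2 on the Ly-6C-negative and from 277.2 to 278 on the Ly-6C-positive arrays.

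**Figure D4:**
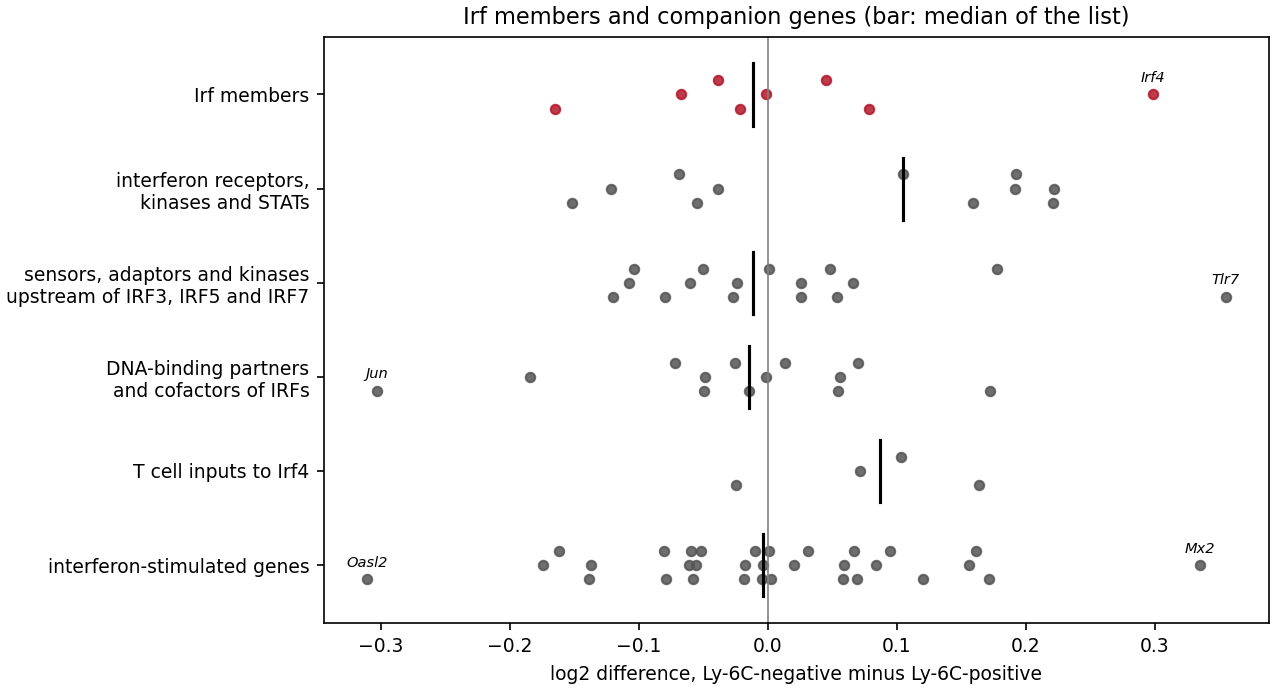
Log2 differences (horizontal axis, Ly-6C-negative minus Ly-6C-positive) of the 8 Irf transcripts (red) and of the measured companion genes in 5 lists (grey), 1 point per gene, with the list median as a black bar and genes beyond 0.25 named. The bars lie between -0.015 and 0.10, and the named points are Irf4, Tlr7, Mx2, Jun and Oasl2.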

How the data were processed

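The deposited values are log2 expression on Affymetrix arrays, 3 per group. Per the labels' protocols, sorted cells gave total RNA that was amplified as cDNA and labelled with biotin. The submitters' processing notes name RMA and Partek, with versions and roles not stated. RMA brings the arrays' distributions close together, so a shift shared by all genes cannot be read from these values. A small offset remained. Over the genes tested, the mean of the array medians differed by -0.0234, Ly-6C-negative minus Ly-6C-positive. In size this exceeded the differences of Irf5 and Irf7, -0.0011 and -0.021. The values ran from 2.47 to 13.6 and were used as deposited. The files' genome build is not given in the sources used here.

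Of 28853 probe sets, 21789 had 1 symbol in the platform annotation, 1621 had several and 5443 were not listed; 21698 were matched to a current gene. For the 999 genes with more than 1 probe set the brightest was used. The 19938 genes were fitted with limma 3.58.1 in R 4.3.3 (lmFit, eBayes, 2-sided, no covariate, Benjamini-Hochberg over all genes, threshold 0.05). The fit was also run on simulated data with independent noise and planted differences. Recovery was required there only for differences much larger than those of the Irf members, so detection of differences of their size is not shown. Figures were drawn with matplotlib 3.10.9. The members and lists were chosen with earlier results of these data known. The genes named are the 8 members, the 3 companion genes per list with the smallest p and the 5 genes closest to the member with the smallest p. Ikzf2, Foxp3, Il2ra, Cd28 and Cd68 are named as markers. Pax5, Fcgr3 and Lyz2 are markers named after their values were seen. Some items are not reported here. The lists of CD8 T cell, neutrophil and NK cell markers had median differences of -0.074, 0.068 and -0.053, with 0 of 2, 0 of 5 and 0 of 5 members past the threshold.

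Both groups share replicate numbers. After subtraction of the group mean, arrays with the same number had r of 0.129, 0.128 and 0.107 over genes. All were above 0.1, a cut set without a test, and this was read as pairing, which the labels do not state. The standard errors, intervals and p-values in the Results come from the fit without this pairing. The 3 r are small and not independent, since the deviations of a gene sum to 0 within a group.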

Additional observations from a re-analysis of the deposited data

How the results depend on the processing

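No Irf member and no companion gene passed the limma threshold under any of the 15 alternatives run, all planned, which include an adjusted p of 0.1. The count over all genes, 29 as reported, was 45 with every probe set as its own feature, 54 with array weights and from 5, without Ly-6C-negative replicate 1, to 47, without Ly-6C-negative replicate 2, with 1 array left out. Without Ly-6C-positive replicate 1, 2 or 3 it was 8, 6 and 8. With the replicate number as a block 41 genes passed, 27 of them among the 29. The block changed the call of no member. With it Irf4 had the same difference, a standard error of 0.0813 and a limma p of 0.00466 before and 0.369 after adjustment. Irf1, Irf2, Irf4 and Irf9 kept their sign in every alternative. For Irf9 the difference came close to 0, from 0.00271 without Ly-6C-positive replicate 1 to 0.092 without Ly-6C-negative replicate 2. Irf5 turned to 0.0191 after a second quantile normalization and 0.0223 with array medians subtracted, and Irf7 to 0.00193 with the latter. With 1 array left out the difference ran from -0.132 to 0.0324 for Irf3, from -0.0304 to 0.0351 for Irf5, from -0.0494 to 0.0124 for Irf7 and from -0.0659 to 0.0138 for Irf8. Subtracting array medians takes the same offset between the groups, -0.0234, out of every difference, which gives the values of Irf5 and Irf7 there. The causes of the other changes were not tested. Irf5 and Irf8 have no value without dim genes.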
